A study of Homo sapiens with 8 samples.

Results

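The 9 genes described here make, sense or remove the signalling lipids lysophosphatidic acid (LPA) and sphingosine-1-phosphate (S1P), and were read in IMR90, a human fetal lung fibroblast line. They are the receptors LPAR1, LPAR3, LPAR6, S1PR1 and S1PR3, the LPA-producing enzyme ENPP2, the S1P-producing kinase SPHK1, and the lipid phosphatases PLPP1 and PLPP3. The genes were selected by symbol from the 28265 genes in the count files, with LPAR3 included because of its increase in the MetaICM libraries, the largest of the 9. All 9 symbols were found. Expression was read by "factory" RNA-Seq, a protocol that enriches RNA attached to active transcription sites, in 8 libraries of 4 conditions with 2 libraries each. The controls are labelled as young IMR90 cells. Treated cells received inflachromene (ICM), a small molecule that binds the chromatin proteins HMGB1 and HMGB2, at 10 μM for 3 or 6 days. The last condition is labelled MetaICM, for which the labels give neither dose nor time. Any vehicle in the controls is not given in the sources used here, and no genetic change was made in any group. All groups come from 1 cell line grown by continuous passaging, so p-values measure the spread between libraries, which may be technical, and not between donors. The labels describe poly(A)+ selection of total RNA, so how far mature mRNA contributes to the exonic counts is not known from them.

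LPA and S1P are lysophospholipids that act outside cells through G protein-coupled receptors. The secreted enzyme autotaxin, encoded by ENPP2, makes LPA from lysophosphatidylcholine, and the sphingosine kinases make S1P inside cells, from where it is exported. Membrane lipid phosphate phosphatases such as PLPP1 and PLPP3 dephosphorylate both lipids and so end their action. In lung fibroblasts, LPA signalling through LPAR1 is known for its part in migration and in fibrosis.

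The proximal sequence upstream of 3 of the genes is shown as examples. LPAR3 had the largest difference in MetaICM, S1PR3 was higher with ICM, and PLPP3 was lower at 3 days. ENPP2, which rose more than S1PR3 with ICM, and SPHK1, which fell more than PLPP3 at 3 days, are not shown. A relation between motifs and these differences was not tested. Each run holds the 250 bases before the transcript start used in the count annotation, 5′ to 3′ on the strand of the gene, from the RefSeq promoter table, placed on GRCh37 (hg19) by exact match. Capitals mark GC boxes (GGGCGG or its complement CCGCCC, overlapping matches joined). The LPAR3 window is chr1:85358890-85359139 on the minus strand, the S1PR3 window chr9:91606133-91606382 on the plus strand, and the PLPP3 window chr1:57045237-57045486 on the minus strand.
LPAR3: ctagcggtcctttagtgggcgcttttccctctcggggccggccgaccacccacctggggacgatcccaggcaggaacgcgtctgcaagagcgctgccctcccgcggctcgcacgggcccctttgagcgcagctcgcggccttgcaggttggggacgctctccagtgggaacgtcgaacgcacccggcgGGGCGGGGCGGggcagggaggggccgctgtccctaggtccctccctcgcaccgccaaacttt
S1PR3: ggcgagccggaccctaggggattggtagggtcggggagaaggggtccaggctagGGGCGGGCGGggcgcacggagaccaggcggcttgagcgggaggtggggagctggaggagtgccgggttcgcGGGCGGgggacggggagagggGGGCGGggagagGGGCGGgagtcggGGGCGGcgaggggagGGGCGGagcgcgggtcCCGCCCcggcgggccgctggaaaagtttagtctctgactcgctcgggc
PLPP3: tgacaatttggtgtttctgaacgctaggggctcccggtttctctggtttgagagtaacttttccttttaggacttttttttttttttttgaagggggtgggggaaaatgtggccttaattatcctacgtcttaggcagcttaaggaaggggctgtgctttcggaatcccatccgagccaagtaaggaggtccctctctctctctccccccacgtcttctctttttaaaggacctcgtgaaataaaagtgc
The S1PR3 window held 8 GC boxes, LPAR3 held 2 that overlap, and PLPP3 held 0, in a table where 42.6% of 35116 windows of the same length hold at least 1. G and C made up 76.4% of the S1PR3 window, 71.2% of the LPAR3 window and 46.0% of the PLPP3 window. A CCAAT box, found in 32.0% of windows, matched once in S1PR3. All motifs were searched on both strands. The TATA box TATAAA, held by 10.7% of windows, was not in the 3 shown here. Neither was the AP-1 motif (TGANTCA, in 6.57% of windows) or, in its turn, the TEAD motif (GGAATG, in 11.9% of windows).

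Library totals ran from 12095123 to 23166405 read pairs assigned to genes, with a median of 18642269.5. The 2 libraries of each condition were each other's nearest, and correlated at 0.988 to 0.996 in log2 CPM, where CPM is a count relative to the TMM-scaled total of its library. All 10 fibroblast markers were at 1 CPM or more in every condition, and their summed level was 23011 to 23448 CPM in control, 12865 to 14595 CPM at 3 days, 11046 to 11451 CPM at 6 days and 20440 to 21432 CPM in MetaICM. No epithelial marker of 8 and no platelet or erythroid marker of 5 reached 1 CPM in both libraries of a condition, and counts for NKX2-1 and CD3E were 0 throughout. Leukocyte markers summed to 2.97 to 5.05 CPM, and 1 of 6 reached 1 CPM in both libraries of each condition but MetaICM, where 2 did. Of the 7 endothelial markers, VWF, TEK and KDR reached 1 CPM in both libraries of each condition but MetaICM, where 2 markers did. The summed level of the 7 was 129 to 235 CPM, while PECAM1, CDH5, CLDN5 and ERG stayed under 1 CPM. In bulk RNA, fewer cells of a state and less RNA per cell cannot be told apart.

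LPAR1, an LPA receptor that couples to several G proteins, had the highest length-scaled level of the 9 genes in every condition, and did not pass the test at either time of ICM. The gene spans chr9:113635532-113801278 (hg19, minus strand), with 4948 exonic bases. Control libraries held 276 and 283 CPM, the 3-day libraries 228 and 255 CPM, the 6-day libraries 249.5 and 238 CPM and the MetaICM libraries 351 and 369 CPM. The ICM libraries lay below both controls at each time, and the MetaICM libraries lay above all others. The log2 fold change (log2FC) against control was -0.22 at 3 days (SE 0.12, adjusted p = 0.211) and -0.21 at 6 days (SE 0.11, adjusted p = 0.135), with 95% intervals of -0.49 to 0.05 and -0.44 to 0.02 (edgeR quasi-likelihood test, Benjamini-Hochberg adjustment over all genes tested, 2 libraries per group). In MetaICM, LPAR1 was at 360.1 ± 12.3 CPM (SD, n = 2), a log2FC of 0.35 (SE 0.11) against control and 0.56 (SE 0.07) against 6 days, given as a description.

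LPAR3, an LPA receptor that couples to Gq and Gi, was nearly silent in control and ICM cells and clearly counted in MetaICM. It lies at chr1:85277285-85358889 (hg19, minus strand) with 3515 exonic bases. Counts were 3 and 4 in control, 11 and 8 at 3 days, 14 and 6 at 6 days, and 157 and 166 in MetaICM. The MetaICM libraries stood apart from the other 6, at 7.79 and 7.26 CPM against at most 0.754 CPM, while both 3-day libraries lay above both controls and the 6-day libraries overlapped them. From summed counts of 323 and 7, MetaICM was 31.1 times control and, from 323 and 20, 14.0 times ICM 6 days. The fitted log2FC was 4.90 (SE 0.51) against control and 3.79 (SE 0.37) against 6 days. LPAR3 was selected on this difference, so no test of it is given.

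In both ICM comparisons with control LPAR3 fell below the minimum of counts and was not tested. Its summed counts gave a ratio to control of 2.15 at 3 days (95% exact binomial interval 0.867 to 6.06) and 2.22 at 6 days (0.900 to 6.20). Between 6 and 3 days the ratio was 1.03 (0.521 to 2.04). These intervals cover counting error only. LPAR3 was tested between 6 and 3 days, with a log2FC of 0.03 (SE 0.54, adjusted p = 0.974, 95% interval -1.10 to 1.17). The intervals of the ratios to control include 1 and reach 6-fold, so a difference was not detectable at this depth. Fitted without the minimum, log2FC was 1.07 at 3 days (adjusted p = 0.434) and 1.13 at 6 days (adjusted p = 0.335, edgeR).

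LPAR6, an LPA receptor linked to G12/13, fell at 3 days. The gene, at chr13:48985181-49018805 (hg19, minus strand), lies within the span of RB1 on the opposite strand and shares no exonic bases with it. Levels were 17.3 and 15.9 CPM in control, 9.81 and 10.1 CPM at 3 days, 14.1 and 13.1 CPM at 6 days, and 11.5 and 9.27 CPM in MetaICM. All 6 libraries outside control were below both controls. At 3 days log2FC was -0.75 (SE 0.17, adjusted p = 0.00725), and at 6 days -0.30 (SE 0.15, adjusted p = 0.129, 95% interval -0.64 to 0.03). Without replicate 1 of ICM 3 days the adjusted p of the first was 0.078 at a log2FC of -0.72. Between 6 and 3 days log2FC was 0.44 (SE 0.15, adjusted p = 0.0436), under the size limit of 0.6, and the adjusted p was 0.129 by DESeq2, 0.0604 with library totals and 0.0659 with all 8 libraries in 1 fit. The unstranded counting cannot separate intronic RB1 reads that meet LPAR6 exons, and RB1 itself had a log2FC of -0.16 at 3 days, 0.19 at 6 days and 0.35 between them. In MetaICM, LPAR6 had a log2FC of -0.70 (SE 0.16) against control.

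**Figure D1:**
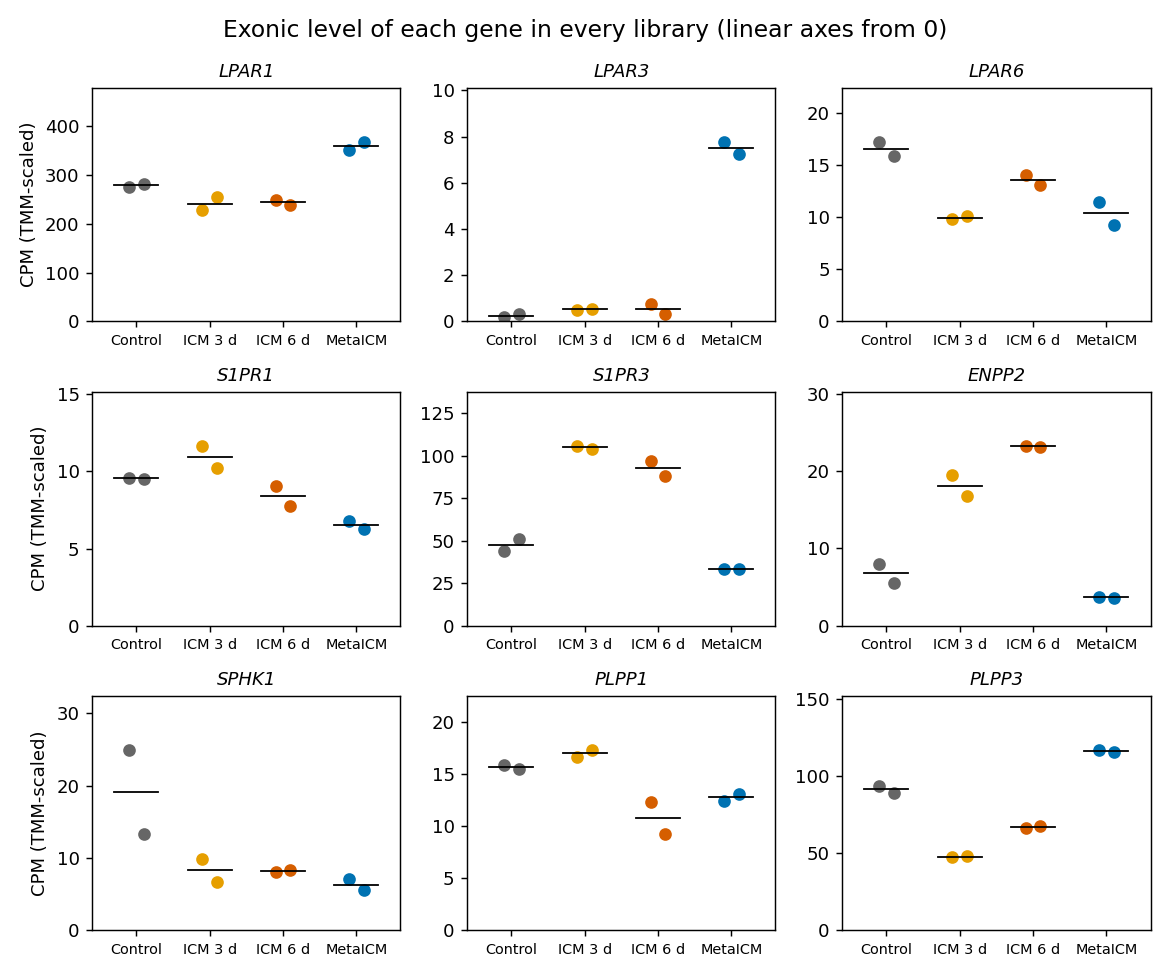
CPM of each gene (vertical axes, linear from 0) in the 2 libraries of each condition (points), with the mean as a line. LPAR3 sits under 1 CPM in all libraries but the MetaICM pair, while ENPP2 and S1PR3 are high at 3 and 6 days of ICM and lowest in MetaICM.

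S1PR3, the S1P receptor that couples to Gi, Gq and G12/13, was above S1PR1 per length in every condition, and rose with ICM. It lies at chr9:91606383-91620069 (hg19, plus strand). Control libraries held 44.1 and 50.8 CPM, 3-day libraries 106 and 104 CPM, 6-day libraries 97.0 and 88.0 CPM, and the MetaICM libraries 33.1 CPM each. The 4 ICM libraries stood above both controls and the MetaICM pair stood below them. Log2FC was 1.14 at 3 days (SE 0.13, adjusted p = 5.83e-05) and 0.95 at 6 days (SE 0.13, adjusted p = 0.000209), and -0.19 between the times (SE 0.09, adjusted p = 0.166, 95% interval -0.38 to 0.005). Against 6 days, MetaICM had a log2FC of -1.49 (SE 0.08), and against control -0.53 (SE 0.12). S1PR3 shares 226 exonic bases with C9orf47 on the same strand, where reads were assigned to neither gene, and C9orf47 had a log2FC of 1.47 at 3 days and 0.87 at 6 days.

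S1PR1, the Gi-coupled S1P receptor best known from endothelium and lymphocytes, did not pass the test at either time of ICM. Located at chr1:101702305-101707076 (hg19, plus strand), it was at 9.58 and 9.50 CPM in control, 11.7 and 10.2 CPM at 3 days, 9.05 and 7.75 CPM at 6 days, and 6.80 and 6.25 CPM in MetaICM. The 3-day pair was above the controls, the 6-day pair below them and the MetaICM pair lowest of all. Log2FC was 0.19 at 3 days (SE 0.19, adjusted p = 0.485, 95% interval -0.22 to 0.61) and -0.20 at 6 days (SE 0.18, adjusted p = 0.404, 95% interval -0.59 to 0.20). In MetaICM its log2FC against control was -0.57 (SE 0.18).

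ENPP2, which encodes the LPA-producing enzyme autotaxin, rose at both times of ICM and was lowest in MetaICM. The gene spans chr8:120569326-120685630 (hg19, minus strand). Levels were 7.92 and 5.57 CPM in control, 19.5 and 16.7 CPM at 3 days, 23.3 and 23.2 CPM at 6 days, and 3.72 and 3.59 CPM in MetaICM, and no library of 1 condition overlapped those of another. Log2FC was 1.41 at 3 days (SE 0.21, adjusted p = 0.000311) and 1.75 at 6 days (SE 0.18, adjusted p = 3.61e-05). From 3 to 6 days it was 0.34 (SE 0.12, adjusted p = 0.0567), which did not pass. MetaICM differed from 6 days by a log2FC of -2.67 (SE 0.14) and from control by -0.91 (SE 0.23).

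SPHK1, the kinase that phosphorylates sphingosine to S1P, fell at both times. It lies at chr17:74379285-74383936 (hg19, plus strand). The control libraries disagreed, at 24.9 and 13.3 CPM, and the others held 9.81 and 6.65 CPM at 3 days, 8.08 and 8.29 CPM at 6 days, and 7.05 and 5.51 CPM in MetaICM. Even so both controls were above all 6 other libraries. Log2FC was -1.22 at 3 days (SE 0.27, adjusted p = 0.00572) and -1.25 at 6 days (SE 0.25, adjusted p = 0.00277). Without control replicate 1 these were -0.69 and -0.73, and the MetaICM value moved from -1.64 (SE 0.26) to -1.11. Without control replicate 2 they were -1.60 and -1.61. Between 6 and 3 days log2FC was -0.03 (SE 0.19, adjusted p = 0.926, 95% interval -0.43 to 0.36).

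PLPP3, a phosphatase that dephosphorylates extracellular LPA and S1P, fell at 3 days and stood between that level and control at 6 days. It lies at chr1:56960433-57045236 (hg19, minus strand). It was at 93.9 and 89.2 CPM in control, 47.4 and 47.9 CPM at 3 days, 66.6 and 67.8 CPM at 6 days, and 117 and 115 CPM in MetaICM, so the 4 conditions did not overlap. Log2FC against control was -0.95 at 3 days (SE 0.13, adjusted p = 0.000150) and -0.46 at 6 days (SE 0.11, adjusted p = 0.00716), the second under the size limit. The difference between 6 and 3 days was 0.49 (SE 0.10, adjusted p = 0.00136), also under it. MetaICM was above control by a log2FC of 0.33 (SE 0.10) and above 6 days by 0.79 (SE 0.07).

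PLPP1, the related phosphatase, was lower at 6 days than at 3 days. It lies at chr5:54720670-54830906 (hg19, minus strand). Its levels were 15.8 and 15.5 CPM in control, 16.6 and 17.3 CPM at 3 days, 12.3 and 9.24 CPM at 6 days, and 12.4 and 13.03 CPM in MetaICM. The 6-day pair lay below the control and 3-day pairs but was itself spread. Log2FC was 0.11 at 3 days (SE 0.16, adjusted p = 0.664, 95% interval -0.25 to 0.46), -0.55 at 6 days (SE 0.18, adjusted p = 0.0275) and -0.66 between 6 and 3 days (SE 0.15, adjusted p = 0.00457). The last passed both limits with both 6-day libraries, and without replicate 2 of ICM 6 days it was -0.48 with an adjusted p of 0.126. Without replicate 1 of ICM 6 days, the difference from control at 6 days passed, at -0.76. PLPP1 shares 493 exonic bases with MTREX on the opposite strand, where reads were assigned to neither gene. The same-strand pseudogene RNF138P1 inside PLPP1 had a log2FC of -0.92 at 3 days and -1.57 at 6 days.

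Among the 8 genes tested at 3 days, 2 were higher (ENPP2, S1PR3) and 3 lower (LPAR6, SPHK1, PLPP3), with all genes at 8.85% higher and 13.2% lower of 15692 tested. At 6 days 2 were higher (ENPP2, S1PR3) and 1 lower (SPHK1) of 8, against 13.3% and 17.2% of 15950. The median log2FC of the 8 was -0.06 at 3 days and -0.26 at 6 days, and that of all genes 0.01 and -0.001. Between 6 and 3 days 1 gene of 9 passed, PLPP1, lower, in a table with 3.53% higher and 4.54% lower of 15845. By adjusted p alone, with no size limit, 2 of 9 were higher (PLPP3, LPAR6) and 1 lower (PLPP1), where all genes stood at 9.66% in each direction. Both comparisons with control use the same 2 control libraries. The MetaICM libraries served to select LPAR3, so their counts are a description, not a test, and nothing is read from them. The limits took in 7.41% of 15904 genes as higher and 8.99% as lower in MetaICM against control, and of the 9 they took in 1 as higher, LPAR3 by its selection, and 3 as lower (LPAR6, ENPP2, SPHK1). Against 6 days they took in 15.7% and 12.0% of 16036 genes, and of the 9 again LPAR3, with PLPP3, as higher and 2 as lower (ENPP2, S1PR3).

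**Figure D2:**
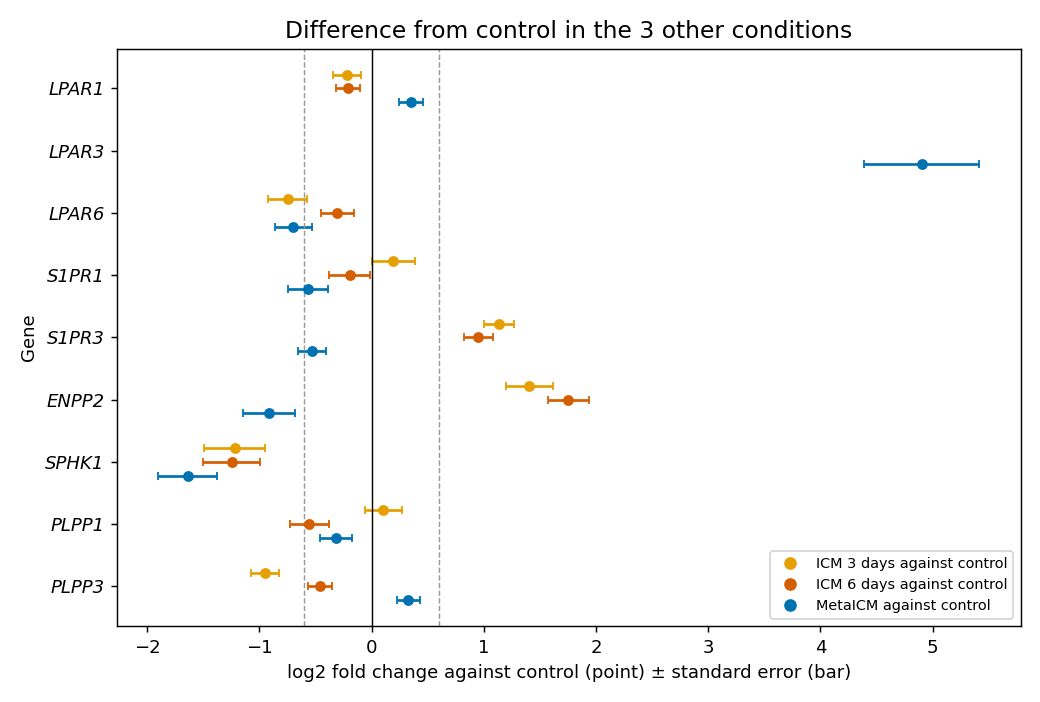
Log2 fold change against control (points) with standard errors (bars) for ICM 3 days, ICM 6 days and MetaICM, with dashed lines at the size limit of 0.6. ENPP2 and S1PR3 lie to the right under ICM and to the left in MetaICM, SPHK1 lies to the left in all, and LPAR3 has a MetaICM point only, at 4.90.

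Levels of different genes were compared only after dividing CPM by exonic length in kilobases. This length includes bases shared with other genes, where pairs were not counted. They make up 493 of 1823 bases in PLPP1 and 226 of 4329 in S1PR3. The length-scaled levels of PLPP1 and S1PR3 are therefore understated. Their order against close neighbours may shift, and that of PLPP1 and ENPP2 at 6 days is not settled here. LPAR1 led in every condition, at 56.5 ± 0.868 CPM per kilobase in control, 48.8 ± 3.89 at 3 days, 49.3 ± 1.62 at 6 days and 72.8 ± 2.49 in MetaICM (SD, n = 2). PLPP3 came next in control (27.98) and MetaICM (35.5), while S1PR3 came next at 3 days (24.2) and at 6 days (21.4), where its libraries overlapped those of PLPP3 (20.5). ENPP2 moved from rank 8 in control (1.92 CPM per kilobase) to rank 5 at 3 days (5.16) and rank 4 at 6 days (6.61, overlapping PLPP1 at 5.90), and to rank 9 in MetaICM (1.04). LPAR3 was rank 9 in control (0.0720), at 3 days (0.148) and at 6 days (0.153). In MetaICM it reached 2.14, level with S1PR1 at 2.16 and SPHK1 at 2.31, whose libraries overlapped in pairs along that order. In control the neighbours PLPP1, SPHK1 and LPAR6 overlapped in turn, as did LPAR6 and SPHK1 at 3 days, and SPHK1 and S1PR1 at 6 days.

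**Figure D3:**
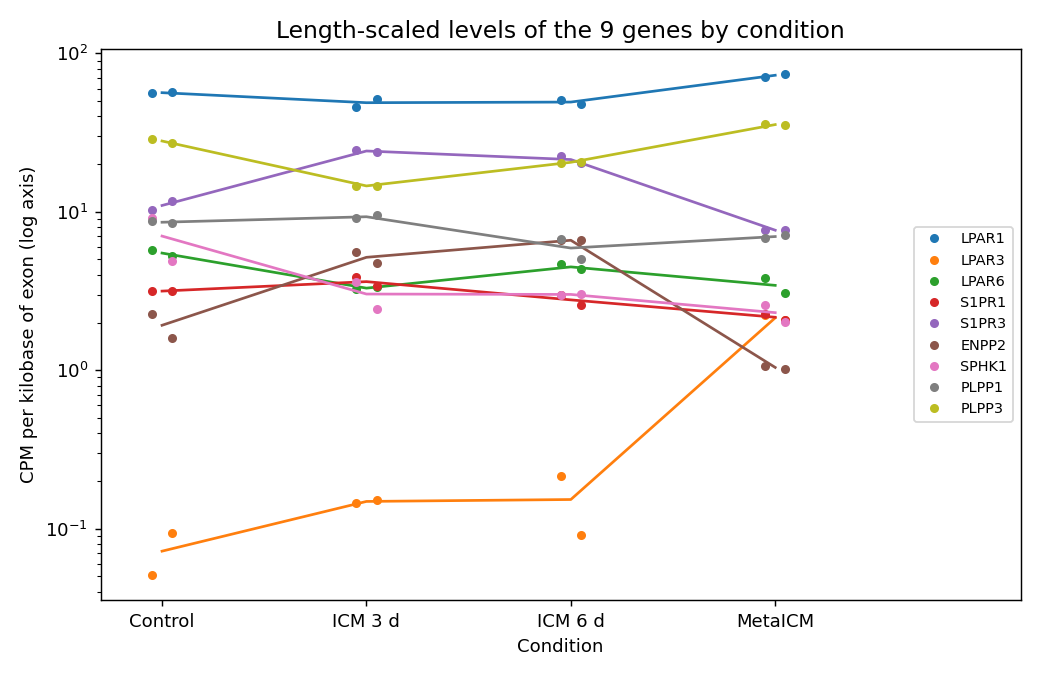
CPM per kilobase of exon (vertical log axis) by condition, with points for libraries and lines through the means. LPAR1 is highest throughout, at 48.8 to 72.8, and LPAR3 climbs from 0.0720 in control to 2.14 in MetaICM, above ENPP2.

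Shares within a library do not depend on scaling between libraries. Of the summed length-scaled counts of LPAR1, LPAR3 and LPAR6, LPAR1 made up 91.0 ± 0.551% in control, 93.4 ± 0.361% at 3 days, 91.4 ± 0.283% at 6 days and 92.9 ± 0.962% in MetaICM (SD, n = 2). LPAR3 made up 0.116 ± 0.0473% in control, 0.284 ± 0.0137% at 3 days, 0.280 ± 0.152% at 6 days and 2.73 ± 0.202% in MetaICM. Even there it stayed a minor part of the transcripts of these receptors. LPAR6 went from 8.85 ± 0.598% in control to 6.32 ± 0.347% at 3 days, 8.32 ± 0.130% at 6 days and 4.39 ± 0.760% in MetaICM. S1PR3 made up 77.6 ± 1.84% of S1PR1 and S1PR3 in control, 87.0 ± 0.895% at 3 days, 88.5 ± 0.406% at 6 days and 78.0 ± 1.03% in MetaICM. PLPP1 made up 23.5 ± 0.370% of the PLPP1 and PLPP3 pair in control, 39.0 ± 0.455% at 3 days, 22.3 ± 3.67% at 6 days and 16.4 ± 0.616% in MetaICM. The shares of PLPP1 and S1PR3 are understated, because pairs on the exonic bases they share with other genes were not counted. LPAR2 and S1PR2, which were also expressed, were not in these sums. With 2 libraries a side, these shares were not tested.

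The other receptors of both lipids were low or did not pass the test under ICM. LPAR2 was at 3.37 ± 0.218 CPM in control, 2.74 ± 0.205 at 3 days, 3.37 ± 0.487 at 6 days and 4.19 ± 0.111 in MetaICM (SD, n = 2), with a log2FC of -0.30 at 3 days (adjusted p = 0.463) and -0.01 at 6 days (adjusted p = 0.987). S1PR2, at 11.9 ± 0.902, 8.45 ± 1.52, 7.95 ± 1.25 and 14.3 ± 0.651 CPM in the same order, had -0.49 at 3 days (adjusted p = 0.0907) and -0.59 at 6 days (adjusted p = 0.0239), just under the size limit. LPAR4, LPAR5, S1PR4 and S1PR5 held at most 6 counts in any library and were not tested.

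Of 102 other genes of these lipid pathways, 101 were found in the files. At 3 days 79 were tested, with 9 higher and 11 lower, beside 8.85% and 13.2% of all genes, and at 6 days 83, with 17 higher and 12 lower, beside 13.3% and 17.2%. The counts of the single lists stand against the same shares. Their median log2FC was 0.09 and 0.10, beside 0.01 and -0.001 for all genes. Between 6 and 3 days 7 were higher and 3 lower of 83, beside 3.53% and 4.54%. In MetaICM 10 were higher and 6 lower of 82 against control, beside 7.41% and 8.99%. Genes of this list named beyond the largest differences were chosen after their values were seen.

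Enzymes of synthesis gave 1 higher and 3 lower of 11 tested at 3 days and 3 higher and 1 lower of 14 at 6 days. The lower genes at 3 days were GPAM (log2FC -0.79), GPAT2 (-1.32) and ACER3 (-0.76). ASAH1, the lysosomal acid ceramidase that frees sphingosine, was at 35.6 ± 0.0123 CPM in control, 52.2 ± 4.50 at 3 days, 96.7 ± 1.10 at 6 days and 59.7 ± 3.97 in MetaICM (SD, n = 2). It rose by a log2FC of 0.88 between 3 and 6 days (SE 0.10, adjusted p = 2.44e-06). ACER2, an alkaline ceramidase, rose at both times (1.01, adjusted p = 0.0258, and 1.16, adjusted p = 0.00626). LIPI, a phosphatidic acid lipase that makes LPA, held 10 and 15 counts in control and 0 and 1 at 6 days, a ratio of 0.0310 (95% exact binomial interval 0.000756 to 0.190). This interval covers counting error only and not the spread between libraries, which in control held 0.595 and 1.23 CPM.

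The list of breakdown and reuse, which holds enzymes and phosphatase-related proteins, gave 5 lower of 19 at 3 days. At 6 days it gave 2 higher and 5 lower of 20. The higher genes at 6 days were the phosphatase-related PLPPR2 (log2FC 0.65) and PLPPR4 (0.74). SGPL1, the lyase that irreversibly degrades S1P, fell by 0.61 at 3 days (adjusted p = 0.00505) and by 1.05 at 6 days (adjusted p = 0.000135) on the log2 scale. AGPAT4 and AGPAT5, which acylate LPA to phosphatidic acid, fell by 0.64 and 0.87 at 3 days (adjusted p = 0.00541 and 0.00238) and by 1.04 and 1.00 at 6 days (adjusted p = 0.000118 and 0.000666). CERS6, a ceramide synthase, fell by 1.40 and 1.18 at these times (adjusted p = 0.000611 and 0.000673). PLPPR3, a phosphatase-related membrane protein, held 32 and 28 counts in control and 4 and 9 at 6 days, a log2FC of -2.57 (SE 0.50, adjusted p = 0.00126).

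Transporters gave 2 higher and 1 lower of 7 at each time. ABCG2, a multidrug exporter, was at 5.83 and 5.73 CPM in control, 12.04 and 10.97 at 3 days, 30.5 and 30.6 at 6 days, and 6.50 and 7.78 in MetaICM. Its log2FC was 2.39 at 6 days (SE 0.16, adjusted p = 1.18e-06) and 1.40 between the times (SE 0.12, adjusted p = 1.73e-07). SPNS2, an S1P exporter, fell by 1.24 at 3 days (adjusted p = 0.00933) and by 0.79 at 6 days (adjusted p = 0.0431).

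GPR65, a proton-sensing receptor also linked to lysophospholipids, rose between 3 and 6 days. It was at 0.714 and 1.147 CPM in control, 0.837 and 0.399 at 3 days, 4.85 and 3.98 at 6 days, and 1.79 and 2.06 in MetaICM, with a log2FC of 2.75 between the times (SE 0.38, adjusted p = 1.16e-05).

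Phospholipid remodelling gave 3 higher and 1 lower of 18 at 3 days and 6 higher and 3 lower of 18 at 6 days. ABHD4, a lipase of N-acyl phospholipids, was at 16.8 ± 2.59 CPM in control, 54.7 ± 0.904 at 3 days, 59.8 ± 5.88 at 6 days and 17.7 ± 0.629 in MetaICM (SD, n = 2), a log2FC of 1.70 at 3 days (SE 0.16, adjusted p = 7.47e-06). MBOAT1, a lysophospholipid acyltransferase, was at 6.83 ± 1.20, 1.72 ± 0.00566, 2.97 ± 0.538 and 12.4 ± 0.762 CPM in the same order, a log2FC of -1.997 at 3 days (SE 0.28, adjusted p = 0.000189).

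Downstream of the receptors, the G protein and RhoA genes gave 3 higher and 1 lower of 19 at 3 days, and 2 higher and 2 lower of 19 at 6 days. RGS4, which speeds the shut-off of Gi and Gq, was at 19.0 and 11.8 CPM in control, 4.32 and 3.92 at 3 days, 6.46 and 6.80 at 6 days, and 6.95 and 8.40 in MetaICM, a log2FC of -1.91 at 3 days (SE 0.25, adjusted p = 0.000117). RGS2, which acts on Gq, went the other way, by 0.70 at 3 days (adjusted p = 0.00792) and 1.24 at 6 days (adjusted p = 3.29e-05). RHOB, a RhoA relative, rose by 1.04 at 3 days (adjusted p = 0.000188) and was lower at 6 days than at 3 days by a log2FC of -0.74 (adjusted p = 9.87e-06).

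**Figure D4:**
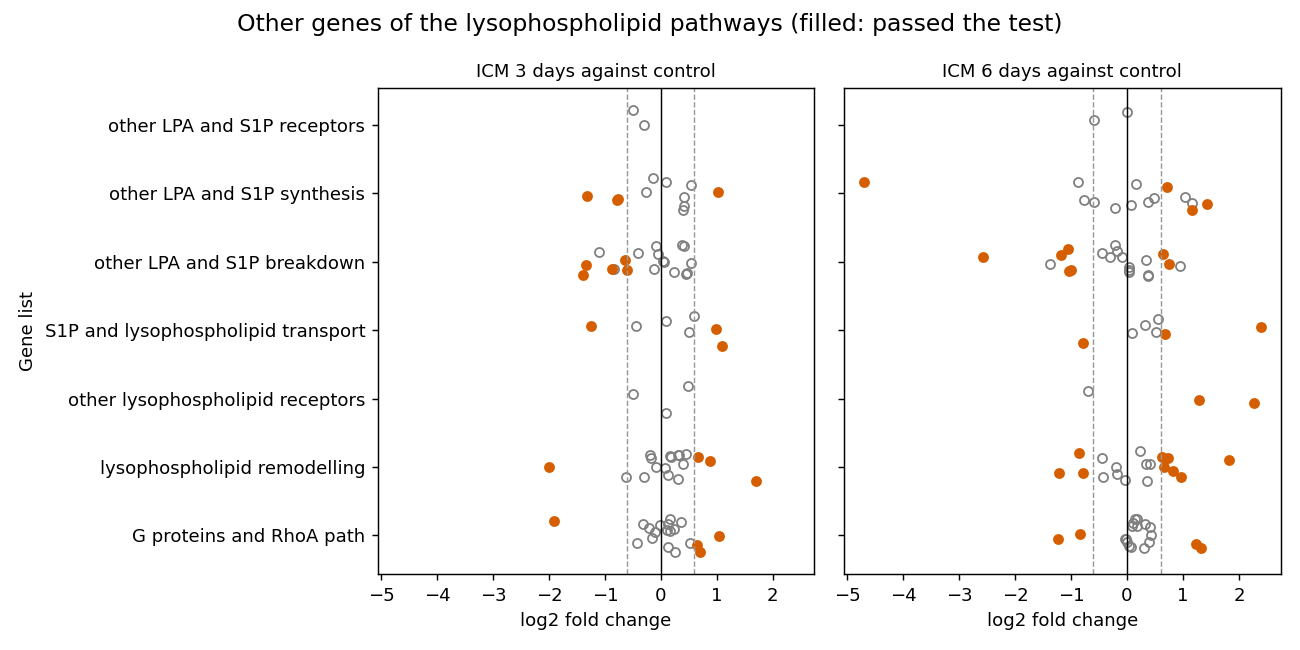
Log2 fold change of the other genes of the lysophospholipid pathways, by list, at 3 days (left) and 6 days (right) of ICM against control. Filled points passed the test (9 higher and 11 lower of 79, then 17 higher and 12 lower of 83), and dashed lines mark a log2 fold change of 0.6 either way; the far-left point at 6 days is LIPI, whose fitted value rests on 1 count there.

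The genes whose log2 CPM followed that of LPAR3 most closely over the 8 libraries were MMP19 (Pearson r 0.979), SYT17 (0.973), MXD4 (0.973), INSC (0.970) and RGL3 (0.969), and 25 of 15903 genes exceeded 0.95. These values describe libraries that fall into MetaICM and the rest, and carry no test. SYT17 held 6 to 12 counts in the other libraries and 68 and 48 in MetaICM, and INSC 14 to 43 and 168 and 229. MMP19, a matrix metalloproteinase, held 189 to 373 counts outside MetaICM and 551 and 587 in it, a far smaller contrast than that of LPAR3.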

How the data were processed

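Factory RNA-Seq of IMR90 fibroblasts was analysed from the gene counts deposited by the authors, whole numbers of read pairs on exons per gene that were not normalized. Per the file headers and labels, reads were aligned to GRCh37 (hg19) with STAR 2.6.0c and counted with featureCounts 1.6.3 on refGene exons as primary, properly paired fragments, without strand and leaving out pairs that overlap several genes. Groups came from the sample titles (4 conditions, 2 libraries each). CPM used TMM scaling over all 8 libraries. Each comparison was fitted on its 4 libraries over all genes passing filterByExpr (minimum count 10) with edgeR 4.0.16 (quasi-likelihood test, R 4.3.3), and a gene passed at an adjusted p under 0.05 (Benjamini-Hochberg) and an absolute log2FC over 0.6. The study's own test used intronic counts, not used here. Similarity to LPAR3 was computed on log2(CPM + 0.5).

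Named by rule were the 9 genes, the other LPA and S1P receptors and the 5 genes most like LPAR3. So were the 3 largest non-overlapping differences of the pathway lists per tested comparison (at least 10 counts in each library of the higher group). Other pathway genes, ACER2, SGPL1, AGPAT4, AGPAT5, CERS6, SPNS2, RGS2 and RHOB among them, were named outside this rule, after their values were seen. The members and lists were chosen with earlier results of these data known. AGPAT9 is an older symbol of more than 1 gene and was left out. On simulated counts of the same libraries with 200 changed genes, the test recovered 98.5% for both ICM comparisons with control. False calls numbered 12 at 3 days and 8 at 6 days. Changes were put only into genes with many counts, and each was larger than those of the 9 genes at 3 days. The rate therefore cannot be read as that for small differences or for genes with few counts, such as LPAR3 and LIPI. Alternatives tried were DESeq2 1.42.0, its size factors, library totals, no filter, all 8 libraries in 1 fit, an adjusted p under 0.01, a replicate block and leaving out each library. Of the 9 genes, 7 have an entry in the RefSeq promoter table. Depth ranged from 12095123 to 23166405 pairs per library, so genes with a few counts, such as LPAR3 outside MetaICM, have wide intervals. 1 gene of the lists is not reported here.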

Additional observations from a re-analysis of the deposited data

Results flagged for a closer look

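Of the 9 genes, 3 had an adjusted p under 0.05 in the test of the difference between the 2 times of ICM (edgeR quasi-likelihood test), without regard to its size, beside 9.66% of all genes in each direction. PLPP1 was lower at 6 days than at 3 days by a log2FC of -0.66 (adjusted p = 0.00457), and both 6-day libraries lay below both 3-day libraries. PLPP3 was higher by 0.49 (adjusted p = 0.00136) and LPAR6 by 0.44 (adjusted p = 0.0436), again with no overlap between the libraries, and both differences were under the size limit of 0.6 and so did not pass both limits. The adjusted p of LPAR6 was over 0.05 by DESeq2 (0.129), with library totals (0.0604), with all 8 libraries in 1 fit (0.0659) and in 3 of the 4 fits without 1 library (up to 0.278). The differences of the 2 phosphatases had opposite signs.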

How the results depend on the processing

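The 9 genes' differences were recomputed under each alternative. Apart from leaving out a library, 300 of 301 values kept their direction and 299 their call. The limit at an adjusted p under 0.01 reuses the main fit, so directions could not change under it. LPAR1 between 6 and 3 days, near 0 in any case, turned to -0.0235 with library totals. Calls in the MetaICM comparisons, here and below, only describe how the limits sort the values and are not tests. With the limit at an adjusted p under 0.01, LPAR6 and ENPP2 dropped out in MetaICM against control. The count of the 9 genes in MetaICM against control was 2 instead of 4 at an adjusted p under 0.01. Calls over the whole table fell as well. The stricter limit took in 664 of 15904 genes as higher and 868 as lower, beside 1179 and 1430 under the main limit. In raw counts without length scaling, LPAR3 made up 0.207% of the LPAR1, LPAR3 and LPAR6 sum at 3 days and 1.99% in MetaICM. S1PR3 made up 83.2% of the S1PR1 and S1PR3 sum in control, 90.5% at 3 days, 91.7% at 6 days and 83.5% in MetaICM. With 1 library left out, where the lone library is assumed to vary like the rest, the count ranged from 0 to 1 between 6 and 3 days (0 without replicate 2 of ICM 6 days) and from 2 to 5 in MetaICM against control (2 without replicate 2 of MetaICM). Near 0 between 6 and 3 days, LPAR1 ranged from -0.0862 to 0.0981, LPAR3 from -0.69 to 0.52 and SPHK1 from -0.26 to 0.28. Of 172 values with a library left out, 166 kept their direction and 164 their call, 5 lost it (LPAR6 at 3 days and in MetaICM, PLPP1 between the times, and ENPP2 in MetaICM against control without either MetaICM library) and 3 gained it (PLPP1 at 6 days, S1PR3 in MetaICM against control and LPAR1 in MetaICM against 6 days). Over all genes, leaving out MetaICM replicate 2 gave 469 higher and 580 lower against control, and control replicate 1 gave 2116 and 1970, beside 1179 and 1430. Library totals in place of TMM moved the 3-day calls over all genes from 1389 higher and 2067 lower to 1785 and 1767. The cause was not tested. With replicate number as a block the counts of genes called stayed at 5 for 3 days and 3 for 6 days against control. No call among the 9 changed. Over all genes, the block gave 1606 higher and 2309 lower at 3 days. Deviations of same-numbered libraries correlated from -0.21 to 0.35, highest between control and ICM 3 days. Whether same-numbered libraries were handled together is not known, and these correlations cannot settle it. Depth limits LPAR3 outside MetaICM most.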
